A study of Mus musculus with 26 samples.

Results

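Neural differentiation of mouse embryonic stem cells (ESCs) was followed in a CTCF rescue line that expressed wild-type (WT) CTCF, by RNA-seq of ESC-WT and of NPC-WT, the cells collected on day 2 of differentiation to neural progenitor cells (NPCs). The comparison used 4 of the 26 libraries of the series, 2 of ESC-WT and 2 of NPC-WT, and was described across all genes. The line is 1 clone of E14 ESCs. Both CTCF alleles carry the mAID-eGFP degron tag, OsTIR1(F74G) is integrated on 1 allele of Rosa26, an mCherry reporter is fused to both alleles of Mnx1 (Hb9), and doxycycline-inducible Flag-Halo-CTCF WT sits at the Tigre locus. For 24 h before collection, ESC-WT and NPC-WT alike received 1 µM 5-Ph-IAA, which degrades the tagged CTCF, and 1 µg/ml doxycycline. ESCs grew on gelatin in N2B27 medium, whose recipe in the study includes serum. For ESCs the medium also held leukemia inhibitory factor (LIF), 3 µM CHIR99021 (an inhibitor of GSK3 that raises β-catenin) and 1 µM PD0325901 (an inhibitor of MEK, upstream of ERK). NPCs were plated on laminin in N2B27 medium, and the study does not state whether serum was left out. The parental E14 cells, for which the labels give no degron or doxycycline treatment, were sequenced in a separate table with 3 libraries of ESCs and 3 of NPCs, and serve here as a second example of the same differentiation. Nothing in the labels states that replicates came from separate cultures, while the study calls them biological. The p-values measure the spread between libraries. In the rescue this spread was estimated over 8 libraries, including those of a line whose CTCF has a deletion in zinc finger 1 (ΔZF1). In E14 it was estimated over 18, including those of E14 lines with truncated Podxl or Grb10 RNA.

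ESCs in LIF with both inhibitors are held in naive pluripotency, a state sustained by transcription factors such as Nanog, Esrrb, Klf4 and Tfcp2l1 around the core factors Pou5f1 and Sox2. When LIF and the inhibitors are withdrawn, naive factors are shut off within days, cells pass through a formative state marked by Fgf5, Otx2 and Pou3f1, and they can then take a neural fate, marked first by Sox1. The same cells can take a surface ectoderm fate, marked by keratins, Gata and AP-2 factors, and the outcome is known to depend on BMP, FGF and Wnt signalling.

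Reads counted on genes numbered 6425179 and 15408396 in ESC-WT replicates 1 and 2, and 23386727 and 12101361 in NPC-WT. NPC-WT replicate 2 stood apart from replicate 1. Over 10417 genes with at least 100 normalized counts on average, the log2 ratio of NPC-WT replicate 2 over replicate 1 followed the GC content of the transcript with r = 0.79 across genes, against 0.03 for the ESC-WT replicates and 0.24 for NPC-WT over ESC-WT. The SD of the log2 ratio was 0.44 between NPC-WT replicates and 0.21 between ESC-WT replicates. Counts of list members that moved by over 1.5 times with 1 library left out, or with an offset for GC content in the model, are given beside the list.

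**Figure D1:**
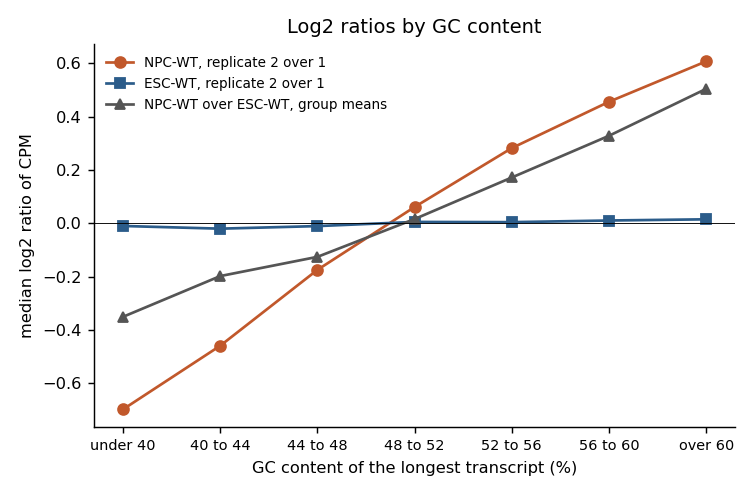
Median log2 ratio of normalized counts (CPM, vertical axis) in bins of transcript GC content (horizontal axis, percent), for NPC-WT replicate 2 over 1 (circles), ESC-WT replicate 2 over 1 (squares) and the mean of NPC-WT over ESC-WT (triangles). The NPC-WT replicates ran from -0.70 in transcripts under 40% GC to 0.61 over 60%, the ESC-WT replicates stayed between -0.02 and 0.02, and NPC-WT over ESC-WT ran from -0.35 to 0.50.

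Of 16641 genes tested, 3661 (22.0%) were higher and 3319 (19.9%) lower in NPC-WT. Counts of list members below are to be read against these shares. A gene was called at an adjusted p up to 0.05, provided that its log2 fold change was 0.5 or more either way. The median log2 fold change of all genes tested was 0.01. Without regard to calls, both NPC-WT libraries were above both ESC-WT libraries for 35.3% of the genes tested and below them for 35.3%. Among called genes this held for 3660 of those that rose and 3307 of those that fell, which the call nearly fixes. A change of at least 4-fold was seen in 1031 rising and 839 falling genes, and of at least 16-fold in 154 and 172. Without NPC-WT replicate 2 the counts were 3832 and 3498. Genes that rose started from a median of 7.52 CPM (counts scaled to a common TMM-normalized library size) in ESC-WT, and genes that fell from 21.3. Among protein-coding genes 25.0% rose and 20.2% fell, among 350 long intergenic noncoding RNAs 10.6% rose and 34.3% fell, and among 564 processed pseudogenes 2.13% rose and 19.9% fell. Pseudogenes share sequence with their parent genes, and their counts are uncertain for that reason.

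**Figure D2:**
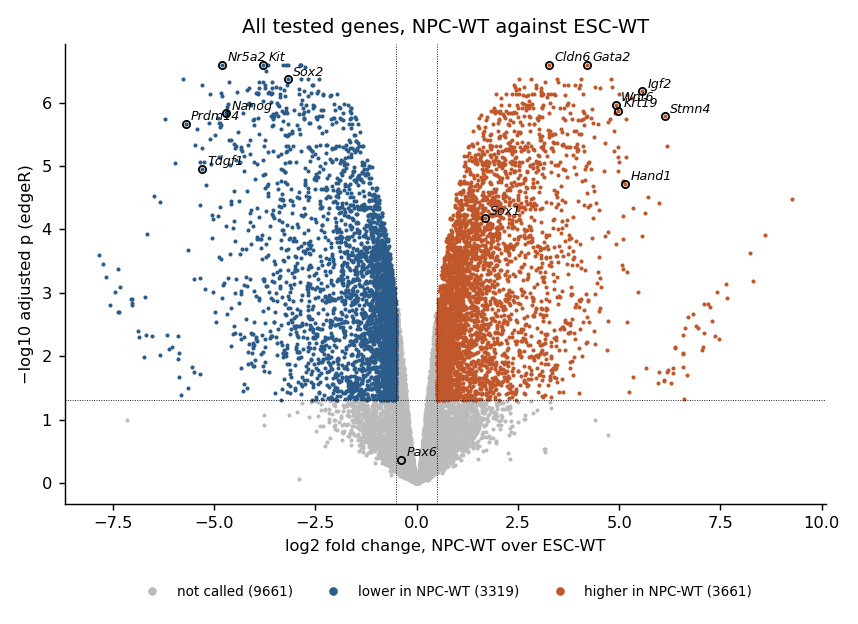
Log2 fold change of NPC-WT over ESC-WT (horizontal axis) against -log10 of the adjusted p (vertical axis) for each of the 16641 genes tested, with the 3661 genes higher in NPC-WT, the 3319 lower and the rest in separate colours, dotted lines at the cutoffs and circles on genes described in the text. Gata2 and Wnt6 lie at the upper right, Nanog and Nr5a2 at the upper left, and Pax6 near the origin.

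The cells labelled ESC-WT carried the markers of naive pluripotency, and these were lower by several-fold in NPC-WT. All 21 naive pluripotency factors tested were called lower, with a median log2 fold change of -3.24, and their summed level went from 7161 and 7241 CPM in ESC-WT to 964 and 1172 CPM in NPC-WT. Here and below, values are given for replicate 1 and then replicate 2. In bulk RNA a lower level cannot be told apart as fewer cells with the RNA or less RNA per cell. Nanog, the homeodomain factor of naive cells, was at 1334 and 1324 CPM in ESC-WT and 33.3 and 69.6 CPM in NPC-WT. Both NPC-WT libraries were far below both ESC-WT libraries, with the second above the first, and with a log2 fold change of -4.71 ± 0.29 (SE, adjusted p = 1.47e-06). Esrrb, an orphan nuclear receptor, was at 795 and 819 CPM in ESC-WT and 51.3 and 82.7 CPM in NPC-WT, with a log2 fold change of -3.60 ± 0.20 (SE, adjusted p = 9.91e-07). Zfp42 (Rex1), a classical marker of the naive state, was at 752 and 764 CPM in ESC-WT and 51.5 and 77.2 CPM in NPC-WT, again without overlap, with a log2 fold change of -3.57 ± 0.17 (SE, adjusted p = 5.83e-07).

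The other factors fell by different amounts. Klf4, which acts downstream of LIF, was at 339 and 365 CPM in ESC-WT and 30.2 and 44.9 CPM in NPC-WT, and Klf2, a target of MEK inhibition, at 260 and 278 CPM in ESC-WT and 18.6 and 26.2 CPM in NPC-WT, with log2 fold changes of -3.24 and -3.60. Tfcp2l1 was at 1030 and 1022 CPM in ESC-WT and 134 and 147 CPM in NPC-WT, with close agreement within each group and a log2 fold change of -2.87 ± 0.10 (SE, adjusted p = 2.53e-07). The largest fall in the list was that of Prdm14, a repressor of FGF signalling and DNA methylation in naive cells, at 43.7 and 40.8 CPM in ESC-WT and 0.339 and 1.63 CPM in NPC-WT, with a log2 fold change of -5.71 ± 0.38 (SE, adjusted p = 2.16e-06). The smallest was that of Tbx3, at 350 and 357 CPM in ESC-WT and 221 and 236 CPM in NPC-WT, with a log2 fold change of -0.63 ± 0.10 (SE, adjusted p = 0.000442). Tbx3 thus kept most of its ESC level in both NPC-WT libraries, whereas Nr5a2, which can replace Pou5f1 in reprogramming, went from 119 and 121 to 3.86 and 4.90 CPM.

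The promoters of Nanog and Zfp42 are shown because they hold TTTGCAT, a part of the octamer sequence that Oct4 (Pou5f1) recognises. Below, the octamer means this part only. Both sequences are from RefSeq, on GRCm38.p6, and cover 250 bases before to 50 bases after the start, 5′ to 3′ on the strand of the gene. Capitals mark the octamer in both, and in Zfp42 also a match to GCCNNNGGC, the sequence of AP-2 factors. The Nanog window is chr6:122707239-122707538 on the plus strand and the Zfp42 window chr8:43306960-43307259 on the minus strand.
Nanog: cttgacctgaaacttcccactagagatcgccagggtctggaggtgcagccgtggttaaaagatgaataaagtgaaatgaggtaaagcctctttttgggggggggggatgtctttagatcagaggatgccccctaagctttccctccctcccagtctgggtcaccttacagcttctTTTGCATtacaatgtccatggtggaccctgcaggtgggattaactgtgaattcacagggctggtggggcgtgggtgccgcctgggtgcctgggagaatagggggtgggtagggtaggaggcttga
Zfp42: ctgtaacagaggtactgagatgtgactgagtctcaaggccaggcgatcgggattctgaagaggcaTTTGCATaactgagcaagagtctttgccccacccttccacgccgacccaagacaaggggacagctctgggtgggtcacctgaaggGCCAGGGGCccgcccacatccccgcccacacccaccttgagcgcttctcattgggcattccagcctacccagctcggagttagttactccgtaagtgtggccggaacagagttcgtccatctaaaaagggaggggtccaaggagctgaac
Searched on both strands, the octamer was in 5.24% of all 27025 promoter windows and in 4.31% of those of genes tested. It was in 4.03% of the windows of genes that rose and in 5.09% of those that fell. For changes of at least 16-fold it was in 11.8% of the 102 of rising genes and in 7.22% of the 97 of falling genes. The octamer begins 75 bases before the start in this Nanog window, 1 of the starts RefSeq gives the gene, and 185 bases before it in Zfp42. These matches are a description of the sequence only.

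Core pluripotency factors moved in both directions, with 6 of 10 lower, 2 higher and a median log2 fold change of -1.27. Pou5f1 was at 562 and 551 CPM in ESC-WT and 48.5 and 94.0 CPM in NPC-WT, with a log2 fold change of -2.98 ± 0.25 (SE, adjusted p = 8.72e-06), so that NPC-WT replicate 1 held less of it than replicate 2 and both held far less than ESC-WT. Sox2, which serves both pluripotent and neural progenitor cells, was at 240 and 269 CPM in ESC-WT and 25.4 and 31.0 CPM in NPC-WT, with a log2 fold change of -3.18 ± 0.13 (SE, adjusted p = 4.28e-07). The largest fall was that of Tdgf1 (Cripto), the co-receptor of Nodal, at 647 and 630 CPM in ESC-WT and 7.20 and 26.6 CPM in NPC-WT, with a log2 fold change of -5.31 ± 0.46 (SE, adjusted p = 1.1e-05). Its processed pseudogene Tdgf1-ps1 went from 46.3 and 42.3 to 0.212 and 1.29 CPM, and reads of the pair may have been split between them. Lin28a, the RNA-binding protein that blocks let-7 maturation, rose from 206 and 187 to 552 and 574 CPM, with a log2 fold change of 1.52 ± 0.10 (SE, adjusted p = 2.32e-06). Trim71 was at 686 and 674 CPM in ESC-WT and 866 and 966 CPM in NPC-WT and Sall4 at 536 and 538 CPM in ESC-WT and 649 and 805 CPM in NPC-WT, with log2 fold changes of 0.43 and 0.44 that stayed under the cutoff of 0.5. With either of the ESC-WT libraries left out, 1 member rose in place of 2.

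Some defining markers of neural progenitors were higher in NPC-WT and others were not. Of 28 neural progenitor genes, 24 were tested, of which 13 rose and 3 fell, with a median log2 fold change of 1.499. Sox1, the earliest marker of neuroectoderm, was at 6.72 and 5.54 CPM in ESC-WT and 16.8 and 22.0 CPM in NPC-WT, with a log2 fold change of 1.68 ± 0.19 (SE, adjusted p = 6.63e-05). Nes (nestin), an intermediate filament of progenitors, was at 28.0 and 37.6 CPM in ESC-WT and 82.2 and 114 CPM in NPC-WT, with a log2 fold change of 1.56 ± 0.18 (SE, adjusted p = 8.07e-05). Both were higher in each NPC-WT library than in either ESC-WT library. Zfp521, an activator of early neural genes, was at 1.83 and 0.457 CPM in ESC-WT and 7.80 and 8.85 CPM in NPC-WT, with a log2 fold change of 3.18 ± 0.39 (SE, adjusted p = 0.000124). Pax6 was at 1.38 and 3.13 CPM in ESC-WT and 2.29 and 1.29 CPM in NPC-WT, with a log2 fold change of -0.39 ± 0.39 (SE, adjusted p = 0.436), and its groups overlapped. Hes5, a Notch target of dividing progenitors, had no count in any of the 4 libraries, which allows up to 0.459 CPM in the shallowest of them for 3 counts. Of the 5 markers that define progenitors here, 3 rose. By immunostaining, the study reports Sox1 in most cells of this line after differentiation, without degron or doxycycline treatment. The libraries here are from treated cells, which are called NPC-WT after their label.

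Among the other members, the SoxC factors Sox4 and Sox11 rose together, Sox4 from 24.1 and 20.9 to 85.7 and 93.3 CPM and Sox11 from 6.42 and 6.59 to 26.9 and 27.4 CPM. Lrp2 (megalin), an endocytic receptor of neuroepithelium and other epithelia, was at 122 and 89.0 CPM in ESC-WT and 868 and 946 CPM in NPC-WT, with a log2 fold change of 3.11 ± 0.18 (SE, adjusted p = 1.09e-06). The largest rise was that of Sox9, at 0.611 and 0 CPM in ESC-WT and 10.0 and 10.5 CPM in NPC-WT, with a log2 fold change of 5.72 ± 0.57 (SE, adjusted p = 3.03e-05), and the largest fall that of Sox2. Cdh2 (N-cadherin) rose from 7.64 and 6.33 to 22.5 and 14.9 CPM, a log2 fold change of 1.47. With the offset for GC content 6 members were lower in place of 3, and 13 were higher as before.

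Patterning genes were at low levels. Of 12 anterior neural genes tested, 5 rose and 1, Hesx1, fell, from 3.97 and 3.78 to 0.424 and 0.773 CPM, and of 13 midbrain and hindbrain genes 6 rose and 3 fell. Without ESC-WT replicate 2 the anterior rises numbered 3. Irx3 was at 2.60 and 1.63 CPM in ESC-WT and 10.9 and 18.047 CPM in NPC-WT, without overlap. En2 (engrailed 2) fell from 22.5 and 26.4 to 2.12 and 3.44 CPM, with a log2 fold change of -3.21 ± 0.23 (SE, adjusted p = 3.4e-06), and Hoxb1, a hindbrain Hox gene induced by retinoic acid, rose from 0.611 and 0.457 to 8.09 and 8.51 CPM, with a log2 fold change of 4.02 ± 0.28 (SE, adjusted p = 3.12e-06). Of 31 Hox genes tested, 11 rose and 2 fell, and 18 were not called. Hoxa3 was at 1.07 and 0.848 CPM in ESC-WT and 9.53 and 9.88 CPM in NPC-WT, while Hoxc13 went from 3.21 and 5.54 to 1.95 and 2.15 CPM. Without ESC-WT replicate 2, 4 Hox genes rose and 1 fell. Of 11 spinal cord progenitor factors 6 rose and 1 fell, with Lmx1b, a dorsal factor, going from 6.88 and 4.76 to 33.4 and 41.9 CPM and Nkx6-2, a ventral one, from 7.34 and 8.02 to 2.63 and 4.64 CPM. The falls numbered 2 with the offset for GC content and 0 by edgeR without ESC-WT replicate 2.

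Early neuron genes moved in both directions. Of 25 proneural and early neuron genes 16 were tested, 5 rose, 3 fell, and the median log2 fold change was 0.06, with 2 rises without ESC-WT replicate 2. Dcx (doublecortin) had no count in ESC-WT or NPC-WT replicate 2 and 0.212 CPM in NPC-WT replicate 1, and was not tested. Stmn2, a microtubule regulator, fell from 213 and 210 to 32.7 and 39.5 CPM, and Gap43, a growth cone protein, rose from 9.78 and 4.63 to 49.3 and 57.3 CPM. Tubb3 (class III β-tubulin) was at 103 and 95.2 CPM in ESC-WT and 63.3 and 76.6 CPM in NPC-WT, with a log2 fold change of -0.51 ± 0.12 (SE, adjusted p = 0.00584). Of 9 differentiated neural and glial markers tested, 3 rose and 3 fell, and 1 fell with either of the ESC-WT libraries left out. Mbp was at 4.59 and 3.72 CPM in ESC-WT and 29.2 and 30.3 CPM in NPC-WT. Axon guidance genes, which also act in epithelia, had 19 of 38 higher and 8 lower (5 lower without ESC-WT replicate 2), with Sema3e at 6.42 and 3.46 CPM in ESC-WT and 90.9 and 76.9 CPM in NPC-WT, Efnb2 at 11.9 and 7.17 CPM in ESC-WT and 104 and 105 CPM in NPC-WT and Ntn1 (netrin-1) at 94.9 and 95.9 CPM in ESC-WT and 7.16 and 11.3 CPM in NPC-WT. The levels of Sema3e and Efnb2 were higher, and that of Ntn1 lower, in both NPC-WT libraries.

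Surface ectoderm and neural border genes were nearly all higher in NPC-WT. Of 21 tested members 19 rose and 2 fell (1 fell without ESC-WT replicate 1), with a median log2 fold change of 3.10. The summed level of the list was 391 and 299 CPM in ESC-WT and 3746 and 5285 CPM in NPC-WT. Krt8 and Krt18, which pair into the keratin filaments of simple epithelia and lie next to each other on chromosome 15 (Krt8 from 101996698 to 102004482, Krt18 from 102028180 to 102032027), rose together. Krt8 was at 51.8 and 29.0 CPM in ESC-WT and 967 and 1386 CPM in NPC-WT, with a log2 fold change of 4.89 ± 0.30 (SE, adjusted p = 1.44e-06). Krt18 was at 94.0 and 44.5 CPM in ESC-WT and 1674 and 2579 CPM in NPC-WT, with a log2 fold change of 4.96 ± 0.38 (SE, adjusted p = 5.05e-06). ESC-WT replicate 1 was above replicate 2 for both genes, and the groups were far apart. Krt19 went from 8.10 and 4.76 to 145 and 236 CPM and Krt7 from 3.67 and 1.89 to 59.2 and 89.6 CPM, with log2 fold changes of 4.98 and 4.88.

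Transcription factors of this fate rose with the keratins. Gata2 was at 15.7 and 12.3 CPM in ESC-WT and 227 and 277 CPM in NPC-WT, with a log2 fold change of 4.19 ± 0.16 (SE, adjusted p = 2.53e-07), and Gata3 at 3.67 and 2.54 CPM in ESC-WT and 61.1 and 63.0 CPM in NPC-WT, with a log2 fold change of 4.40 ± 0.21 (SE, adjusted p = 5.57e-07). Both zinc finger factors were far higher in each NPC-WT library than in either ESC-WT library. Msx2, a BMP-responsive homeodomain factor, was at 6.42 and 6.20 CPM in ESC-WT and 47.2 and 49.2 CPM in NPC-WT, and Dlx3 at 6.88 and 3.98 CPM in ESC-WT and 51.3 and 54.0 CPM in NPC-WT, with close replicates in NPC-WT. The AP-2 factor Tfap2a went from 3.21 and 3.13 to 13.6 and 12.2 CPM and Tfap2c, already present in ESCs, from 94.0 and 89.7 to 172 and 165 CPM. Grhl3 and Grhl2, grainyhead-like factors of epithelia, went from 19.7 and 22.8 to 63.7 and 72.4 CPM and from 3.36 and 2.94 to 30.3 and 31.3 CPM. Dlx5 had no count in ESC-WT and 1.27 and 1.63 CPM in NPC-WT, at least 4.44-fold higher against 3 counts in each ESC-WT library. Trp63 (p63), which marks committed epidermis, was low throughout, at 0.611 and 0.587 CPM in ESC-WT and 3.90 and 1.46 CPM in NPC-WT, with a log2 fold change of 2.24 ± 0.55 (SE, adjusted p = 0.00743). Wnt6, a ligand of surface ectoderm, was at 4.13 and 2.74 CPM in ESC-WT and 77.5 and 119 CPM in NPC-WT, with a log2 fold change of 4.92 ± 0.28 (SE, adjusted p = 1.09e-06).

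**Figure D3:**
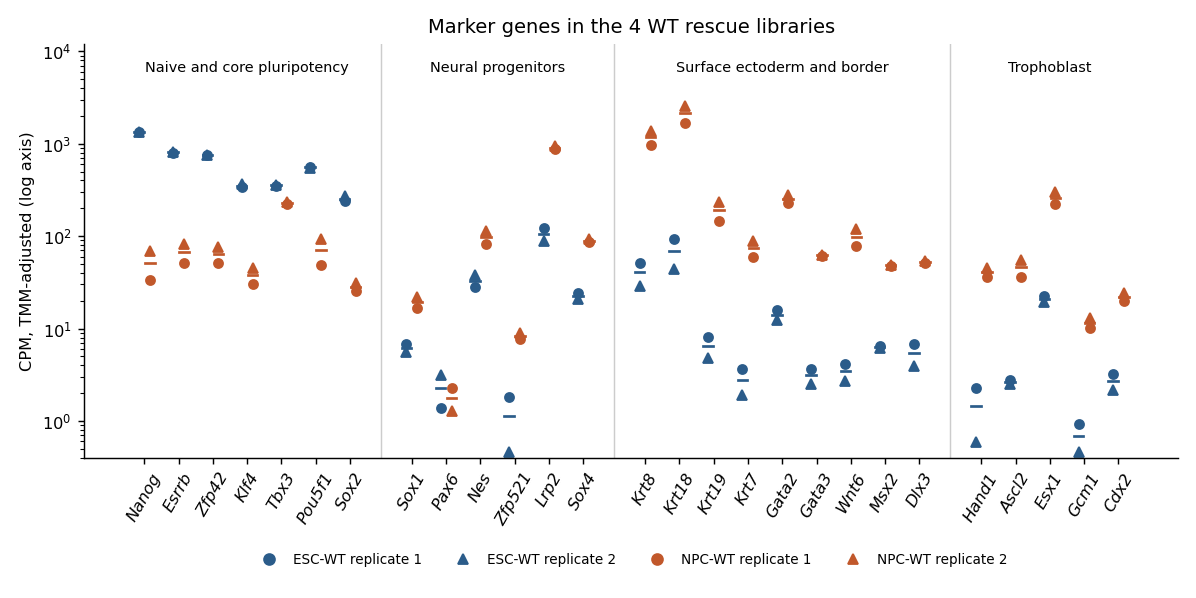
CPM on a log axis (vertical) of marker genes (horizontal) in ESC-WT (blue) and NPC-WT (orange), with circles for replicate 1, triangles for replicate 2 and bars for the group mean. The pluripotency genes are lower in NPC-WT, Pax6 overlaps, and the surface ectoderm and trophoblast genes shown are higher, with Krt18 reaching 2579 CPM in NPC-WT replicate 2.

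The promoters of Krt8, Krt18 and Gata3 are shown because the AP-2 factors that rose are known to bind GC-rich sites in epithelial promoters and because Krt8 and Krt18 differ in them. The windows are those of RefSeq on GRCm38.p6, 250 bases before to 50 after the start. They are chr15:102004293-102004592 on the minus strand for Krt8, chr15:102027966-102028265 on the plus strand for Krt18 and chr2:9878551-9878850 on the minus strand for Gata3. Capitals mark GCCNNNGGC in Krt18 and Gata3, and AGATAA, which factors such as Gata2 and Gata3 recognise, in Krt8.
Krt8: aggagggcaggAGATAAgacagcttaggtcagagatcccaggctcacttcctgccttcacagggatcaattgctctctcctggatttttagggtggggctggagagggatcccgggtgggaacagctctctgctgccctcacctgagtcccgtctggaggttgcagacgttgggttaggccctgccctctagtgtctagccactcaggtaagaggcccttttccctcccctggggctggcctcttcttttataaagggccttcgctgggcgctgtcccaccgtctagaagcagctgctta
Krt18: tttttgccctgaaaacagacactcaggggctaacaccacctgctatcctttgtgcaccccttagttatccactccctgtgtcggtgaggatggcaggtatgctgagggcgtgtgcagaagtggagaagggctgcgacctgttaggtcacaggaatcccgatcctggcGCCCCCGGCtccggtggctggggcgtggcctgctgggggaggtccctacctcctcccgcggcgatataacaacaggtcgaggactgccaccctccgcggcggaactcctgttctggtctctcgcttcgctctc
Gata3: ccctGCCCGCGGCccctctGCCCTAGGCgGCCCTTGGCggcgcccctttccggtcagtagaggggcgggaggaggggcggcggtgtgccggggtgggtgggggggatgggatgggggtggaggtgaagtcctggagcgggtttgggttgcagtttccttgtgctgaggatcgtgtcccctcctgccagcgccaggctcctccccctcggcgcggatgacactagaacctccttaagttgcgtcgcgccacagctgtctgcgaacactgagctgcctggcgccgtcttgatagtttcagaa
GCCNNNGGC, which reads the same on both strands, begins 83 bases before the start in Krt18 and 246, 231 and 221 bases before it in Gata3, and was not in the Krt8 window. It was in 18.5% of all promoter windows, in 28.7% of the 11703 of genes tested, in 33.3% of those of genes that rose and in 23.7% of those that fell. For changes of at least 16-fold the shares were 31.4% of rising and 12.4% of falling genes. The windows held a median of 21 CpG for the genes tested, 23 for genes that rose and 18 for genes that fell (15 and 5 at 16-fold or more), and the part of base composition in the difference was not tested. AGATAA was in 7.78% of the windows of genes tested, 7.84% of those of genes that rose and 8.27% of those that fell, and in 10.8% and 16.5% for changes of at least 16-fold. The matches shown do not overlap.

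Trophoblast genes, several of which surface ectoderm also expresses, rose as well, with 10 of 11 tested higher and a median log2 fold change of 4.12. Of these members Ascl2, Cdx2, Eomes, Gata3, Hand1, Krt7 and Tfap2c are in other lists too. The summed level went from 146 and 132 CPM to 638 and 774 CPM. Hand1, a bHLH factor of trophoblast giant cells, amnion and lateral mesoderm, was at 2.29 and 0.587 CPM in ESC-WT and 36.2 and 45.3 CPM in NPC-WT, with a log2 fold change of 5.14 ± 0.48 (SE, adjusted p = 1.89e-05). Ascl2, a bHLH factor of trophoblast progenitors, was at 2.75 and 2.54 CPM in ESC-WT and 36.1 and 55.6 CPM in NPC-WT, with a log2 fold change of 4.12 ± 0.25 (SE, adjusted p = 1.43e-06). The X-linked homeobox gene Esx1 went from 22.6 and 19.5 to 221 and 300 CPM and Gcm1 from 0.917 and 0.457 to 10.3 and 12.9 CPM. Cdx2 was at 3.21 and 2.15 CPM in ESC-WT and 19.9 and 24.1 CPM in NPC-WT, and the only member that fell, Eomes, at 11.005 and 11.7 CPM in ESC-WT and 6.91 and 5.93 CPM in NPC-WT. For Hand1, Ascl2, Esx1, Gcm1 and Cdx2, both NPC-WT libraries were above both ESC-WT libraries.

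Endoderm genes, visceral and parietal ones included, had 15 of 25 higher and 2 lower, with a median log2 fold change of 1.90. The largest rise in this list was that of Krt19, described above with the surface ectoderm genes. Sox17, the endoderm HMG box factor, was at 2.14 and 1.04 CPM in ESC-WT and 5.93 and 4.38 CPM in NPC-WT, and Gata6 at 2.90 and 1.83 CPM in ESC-WT and 8.01 and 10.4 CPM in NPC-WT. Both were higher in each NPC-WT library and remained low. Dab2, an adaptor of endocytosis in visceral endoderm, was at 25.8 and 9.98 CPM in ESC-WT and 78.9 and 58.1 CPM in NPC-WT. The cubilin gene Cubn was at 31.5 and 9.46 CPM in ESC-WT and 94.5 and 72.8 CPM in NPC-WT, with ESC-WT replicate 1 well above replicate 2. The basement membrane genes Lamb1 and Col4a1 were at 92.5 and 79.0 CPM in ESC-WT and 347 and 417 CPM in NPC-WT and at 118 and 67.6 CPM in ESC-WT and 415 and 634 CPM in NPC-WT. Hnf4a fell from 2.75 and 2.54 to 0.381 and 0.773 CPM.

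Mesoderm and caudal epiblast genes were split, with 8 of 21 higher and 7 lower. T (brachyury), the defining factor of the primitive streak, was at 1.53 and 2.48 CPM in ESC-WT and 0.466 and 0.344 CPM in NPC-WT, with a log2 fold change of -2.30 ± 0.44 (SE, adjusted p = 0.00179). Nkx1-2, a marker of caudal progenitors, fell from 9.32 and 9.98 to 0.847 and 1.12 CPM. The member with the largest rise was Hand1, described above, and Foxf1, a lateral mesoderm factor, reached 2.54 and 2.41 CPM from 0.153 and 0.0652 CPM. The ESC-WT values of Foxf1 rest on fewer than 3 counts each. Neural crest genes had 8 of 14 higher and 3 lower. The largest rise among them was that of Sox9, also a neural progenitor gene here. The largest fall was that of Foxd3, also a formative gene here. The summed level of the neural crest list went from 469 and 480 CPM to 125 and 145 CPM. Most of the ESC-WT sum was Kit, the receptor of stem cell factor, at 371 and 384 CPM in ESC-WT and 24.3 and 30.3 CPM in NPC-WT. Of 12 fibroblast and feeder markers, 7 were tested and 5 rose, with Col1a1 at 4.59 and 4.37 CPM in ESC-WT and 27.2 and 54.7 CPM in NPC-WT, Acta2 (smooth muscle actin) at 6.42 and 3.65 CPM in ESC-WT and 45.1 and 46.7 CPM in NPC-WT and Tagln at 2.45 and 1.43 CPM in ESC-WT and 34.3 and 27.4 CPM in NPC-WT, and Thy1 fell. The summed level of that list was 37.6 and 32.5 CPM in ESC-WT and 151 and 195 CPM in NPC-WT. The part of other cell types in the counts of each list was not tested.

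**Figure D4:**
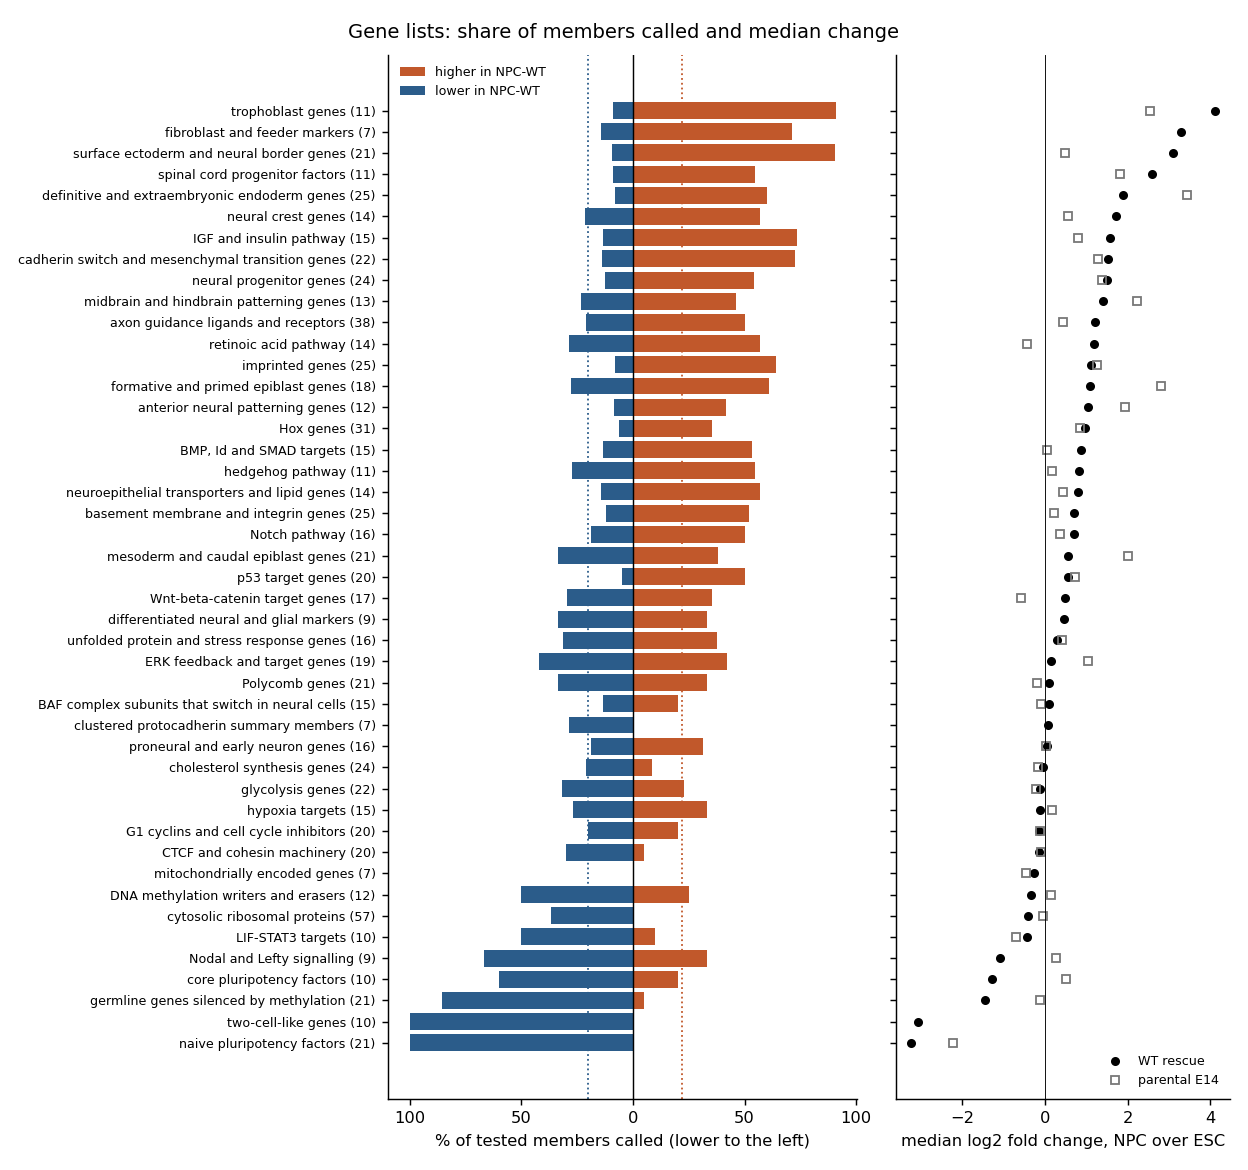
Left, percentage of tested members (number in brackets) of each list called higher (orange, to the right) or lower (blue, to the left) in NPC-WT, with dotted lines at the shares over all genes, 22.0% and 19.9%. Right, median log2 fold change of NPC over ESC for the WT rescue line (filled circles) and parental E14 (open squares, for lists with at least 5 members tested there), in order of the WT rescue, from naive pluripotency factors at -3.24 to trophoblast genes at 4.12.

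Formative and primed epiblast genes were a mixed group, with 11 of 18 higher, 5 lower and a median log2 fold change of 1.08. Fgf5, the ligand that marks the formative state, was at 0.153 and 0.0652 CPM in ESC-WT and 1.57 and 1.63 CPM in NPC-WT, with a log2 fold change of 4.02 ± 0.73 (SE, adjusted p = 0.0013). The ESC-WT values of Fgf5 rest on fewer than 3 counts each, so the size of its change is uncertain. Otx2 was at 1.99 and 3.13 CPM in ESC-WT and 7.5001 and 7.56 CPM in NPC-WT, with a log2 fold change of 1.47 ± 0.24 (SE, adjusted p = 0.00065). Both rose in each library and stayed below 10 CPM. Pou3f1 (Oct6) went from 6.11 and 3.46 to 24.9 and 34.4 CPM and Cldn6, a tight junction protein of the epiblast, from 14.2 and 13.1 to 130 and 132 CPM. Wnt8a showed the largest rise, from 1.22 and 0.457 to 14.8 and 20.9 CPM, and Foxd3, a repressor needed to leave the naive state, the largest fall, from 12.992 and 13.045 to 0.593 and 1.29 CPM. Fgf15 fell from 3.82 and 3.13 to 0.254 and 0.258 CPM.

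Targets of the pathways that LIF and both inhibitors act on moved in both directions. Socs3, the feedback inhibitor of LIF and STAT3 signalling, was at 194 and 204 CPM in ESC-WT and 16.9 and 24.5 CPM in NPC-WT, with a log2 fold change of -3.28 ± 0.16 (SE, adjusted p = 6.41e-07), and 5 of 10 LIF targets fell and 1, the oncostatin M receptor gene Osmr, rose. Without NPC-WT replicate 1, 3 rose. ERK feedback and target genes had 8 of 19 higher and 8 lower. The ETS factors Etv4 and Etv5 were at 155 and 173 CPM in ESC-WT and 23.8 and 32.2 CPM in NPC-WT and at 345 and 367 CPM in ESC-WT and 41.1 and 54.1 CPM in NPC-WT, and Spry4, an inhibitor of receptor tyrosine kinase signalling, at 75.8 and 83.9 CPM in ESC-WT and 9.53 and 14.4 CPM in NPC-WT. All 3 were lower in both NPC-WT libraries. Egr1, an immediate early gene, was at 1.68 and 1.24 CPM in ESC-WT and 10.975 and 10.3 CPM in NPC-WT, and Dusp5, an ERK phosphatase of the nucleus, at 9.63 and 8.67 CPM in ESC-WT and 61.7 and 72.4 CPM in NPC-WT. Dusp6, the cytoplasmic one, went from 26.9 and 19.2 to 42.9 and 45.9 CPM and Myc from 20.8 and 20.8 to 66.9 and 79.7 CPM. The cyclin D genes went opposite ways, Ccnd1 from 123 and 129 to 51.4 and 60.8 CPM and Ccnd2 from 14.8 and 10.4 to 85.6 and 84.6 CPM.

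In the Nodal pathway 6 of 9 genes fell and 3 rose (1 without ESC-WT replicate 2). Nodal itself went from 46.2 and 43.4 to 10.5 and 14.7 CPM and its inhibitor Lefty2 from 49.2 and 53.2 to 2.37 and 4.90 CPM, while Foxh1, the DNA-binding partner of SMAD2, went from 26.7 and 28.6 to 50.6 and 62.4 CPM. The BMP list had 8 of 15 higher and 2 lower. Among the ligands, Bmp2 was at 0.306 and 0.196 CPM in ESC-WT and 7.37 and 7.82 CPM in NPC-WT, with a log2 fold change of 5.00 ± 0.41 (SE, adjusted p = 8.51e-06), and Bmp4 at 20.2 and 19.2 CPM in ESC-WT and 4.62 and 5.76 CPM in NPC-WT, with a log2 fold change of -1.94 ± 0.19 (SE, adjusted p = 3.12e-05). The ligands thus moved in opposite directions, and the targets Id2 and Id3, inhibitors of bHLH factors, rose, Id2 from 8.41 and 4.04 to 74.3 and 45.0 CPM and Id3 from 19.7 and 20.3 to 74.5 and 136 CPM. Wnt targets had 6 of 17 higher and 5 lower. Axin2, the most general target, was at 62.5 and 68.9 CPM in ESC-WT and 40.3 and 56.7 CPM in NPC-WT, with a log2 fold change of -0.45 ± 0.16 (SE, adjusted p = 0.0421), which missed the cutoff on size. Notum, a Wnt deacylase, fell from 15.1 and 14.7 to 1.82 and 2.75 CPM, and Dkk1, a secreted inhibitor, rose from 2.45 and 1.5002 to 27.8 and 22.3 CPM.

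Notch genes had 8 of 16 higher and 3 lower. Notch3 went from 39.7 and 32.6 to 84.3 and 151 CPM and the ligand Dll1 from 0.306 and 0.717 to 4.87 and 7.65 CPM, whereas the target Hes1 was at 49.979 and 46.8 CPM in ESC-WT and 12.2 and 12.0 CPM in NPC-WT, with a log2 fold change of -1.99 ± 0.13 (SE, adjusted p = 1.99e-06). In the hedgehog pathway 6 of 11 rose and 3 fell, with Gli3, mainly a repressor, going from 50.4 and 41.4 to 180 and 142 CPM, Gli2, mainly an activator, from 74.9 and 82.2 to 17.0 and 22.9 CPM and the receptor and target Ptch1 from 54.6 and 58.5 to 29.5 and 24.8 CPM. Of 14 retinoic acid genes 8 rose and 4 fell, Crabp2 going from 5.04 and 3.26 to 42.4 and 58.9 CPM and the receptor Rarg from 102 and 98.9 to 37.5 and 47.9 CPM. Insulin-like growth factor genes had 11 of 15 higher and 2 lower. Igf2, the fetal growth factor, was at 9.78 and 4.89 CPM in ESC-WT and 274 and 370 CPM in NPC-WT, with a log2 fold change of 5.57 ± 0.28 (SE, adjusted p = 6.61e-07), and Irs2, which relays the signal from the receptor, at 18.035 and 14.3 CPM in ESC-WT and 164 and 185 CPM in NPC-WT, with a log2 fold change of 3.45 ± 0.15 (SE, adjusted p = 4.28e-07).

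Imprinted genes had 16 of 25 higher and 2 lower, with a median log2 fold change of 1.12. Peg10, a paternally expressed gene derived from a retrotransposon, was at 1741 and 985 CPM in ESC-WT and 26937 and 21000 CPM in NPC-WT, with a log2 fold change of 4.14 ± 0.28 (SE, adjusted p = 2.25e-06). Per length it was the sixth most abundant gene of NPC-WT, with 8631 and 3595 TPM (transcript counts scaled for gene length) against 479 and 240 in ESC-WT. The others among the 10 most abundant genes per length in NPC-WT were Gm23935, CT010467.2, Rn7sk, mt-Rnr2, Rmrp, Eef1a1, Actb, Hsp90ab1 and mt-Co1, of which Actb was at 2798 and 2420 TPM in ESC-WT and 5497 and 3240 TPM in NPC-WT. In ESC-WT the list held CT010467.1 in place of Peg10. Gm23935 and CT010467.2 held 306308 and 162224 TPM in NPC-WT replicate 1, and 510218 and 201850 TPM in replicate 2. TPM share a fixed total, so the TPM of Peg10 and Actb, and their spread between replicates, depend on these features. H19, the maternally expressed noncoding RNA next to Igf2 on chromosome 7, was at 92.3 and 45.1 CPM in ESC-WT and 2243 and 2656 CPM in NPC-WT, with a log2 fold change of 5.18 ± 0.33 (SE, adjusted p = 1.8e-06). Peg3 was at 198 and 121 CPM in ESC-WT and 2000 and 1965 CPM in NPC-WT and Mest at 486 and 387 CPM in ESC-WT and 1684 and 1535 CPM in NPC-WT. Cdkn1c, an inhibitor of the cell cycle, and Phlda2, a regulator of placental growth, went from 4.89 and 3.13 to 15.6 and 16.1 CPM and from 7.95 and 8.87 to 51.5 and 58.4 CPM. Igf2r, which clears IGF2, was the largest fall at 122 and 128 CPM in ESC-WT and 63.6 and 72.1 CPM in NPC-WT. Of Peg10, H19, Peg3, Mest, Cdkn1c and Phlda2, each was higher in both NPC-WT libraries, and for all but Phlda2 ESC-WT replicate 1 was above replicate 2.

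The same order of the ESC-WT replicates held for most genes with a large rise. Of 437 genes that rose at least 4-fold and averaged at least 100 normalized counts, 79.9% were higher in ESC-WT replicate 1 than in replicate 2, against 50.6% of the 10576 genes tested at that level, and the median ratio was 1.19. Of 242 genes that fell at least 4-fold, 32.2% were higher in ESC-WT replicate 1, and 74.4% were higher in NPC-WT replicate 2 than in replicate 1, against 53.7%, and the median ratio was 1.27. The shares describe the libraries, since the same values entered the fold changes.

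Among DNA methylation writers and erasers 3 of 12 rose and 6 fell. Tet1 and Tet2, which oxidize methylated cytosine, were at 824 and 978 CPM in ESC-WT and 116 and 131 CPM in NPC-WT and at 268 and 295 CPM in ESC-WT and 42.9 and 40.4 CPM in NPC-WT, whereas Tet3 was at 46.9 and 38.7 CPM in ESC-WT and 93.4 and 120 CPM in NPC-WT. Among the methyltransferase genes, Dnmt3b was at 128 and 117 CPM in ESC-WT and 193 and 242 CPM in NPC-WT and Dnmt3l, a cofactor, at 91.9 and 79.9 CPM in ESC-WT and 194 and 272 CPM in NPC-WT, and Dnmt3a was at 111 and 109 CPM in ESC-WT and 65.4 and 90.1 CPM in NPC-WT, with a log2 fold change of -0.51 ± 0.14 (SE, adjusted p = 0.0154). Of 21 germline genes known to be silenced by methylation, 18 fell and 1, Tdrd1, rose (2 without NPC-WT replicate 2 or with the offset for GC content). Dazl, an RNA-binding protein of germ cells, was at 35.6 and 34.8 CPM in ESC-WT and 2.08 and 2.66 CPM in NPC-WT, and Hormad1, a meiotic axis protein, at 20.9 and 17.8 CPM in ESC-WT and 1.31 and 1.12 CPM in NPC-WT. All 10 two-cell-like genes tested fell, Zscan4d from 13.1 and 15.8 to 1.69 and 1.89 CPM and Zscan4c from 6.11 and 7.37 to 0.636 and 0.859 CPM, and these families have near-identical copies between which reads may be split. Polycomb genes had 7 of 21 higher and 7 lower, with Phf19 at 9.17 and 7.96 CPM in ESC-WT and 48.6 and 53.9 CPM in NPC-WT and Mtf2, another accessory subunit, at 508 and 521 CPM in ESC-WT and 234 and 151 CPM in NPC-WT. Of the BAF subunits Smarca2, the alternative ATPase, rose from 4.28 and 4.24 to 18.7 and 17.5 CPM, and 3 of 15 rose and 2 fell in all.

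Ctcf was at 562 and 577 CPM in ESC-WT and 474 and 449 CPM in NPC-WT, with a log2 fold change of -0.30 ± 0.09 (SE, adjusted p = 0.0213), which was under the cutoff on size. Its reads come from the tagged endogenous alleles and the WT transgene and cannot be told apart. Of 20 CTCF and cohesin genes 1, Mau2, rose and 6 fell, and 2 rose with the offset for GC content. Ctcfl (BORIS), the germline paralog of CTCF, was at 7.49 and 6.20 CPM in ESC-WT and 0.551 and 1.20 CPM in NPC-WT, with a log2 fold change of -3.07 ± 0.36 (SE, adjusted p = 9.02e-05), and Stag3, a meiotic cohesin subunit, went from 43.6 and 44.7 to 17.2 and 19.4 CPM.

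Of 22 genes of the cadherin switch and mesenchymal transition 16 rose and 3 fell. Cdh1 (E-cadherin) was at 641 and 639 CPM in ESC-WT and 954 and 1000 CPM in NPC-WT, with a log2 fold change of 0.61 ± 0.09 (SE, adjusted p = 0.000523), and the claudins Cldn4 and Cldn7 at 24.9 and 18.9 CPM in ESC-WT and 146 and 203 CPM in NPC-WT and at 7.95 and 6.46 CPM in ESC-WT and 42.5 and 46.5 CPM in NPC-WT. Zeb1, a repressor of Cdh1, fell from 27.5 and 24.5 to 7.88 and 6.10 CPM, while its paralog Zeb2 rose from 1.99 and 2.80 to 21.9 and 12.6 CPM, and Fn1 (fibronectin) fell from 410 and 467 to 198 and 232 CPM. Of 25 basement membrane and integrin genes 13 rose and 3 fell. Hspg2 (perlecan) was at 262 and 254 CPM in ESC-WT and 1040 and 1584 CPM in NPC-WT, Lama5 at 114 and 120 CPM in ESC-WT and 382 and 579 CPM in NPC-WT and the laminin receptor subunit Itga3 at 130 and 118 CPM in ESC-WT and 444 and 569 CPM in NPC-WT, with all NPC-WT values above the ESC-WT values.

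The 15 largest rises among called genes with at least 100 normalized counts on average and no overlap were those of Stmn4, Igf2, Slc5a5, 3830417A13Rik, H19, Hand1, Rrad, Wnt4, Krt19, Tnnt3, Col1a2, Krt18, Wnt6, Krt8 and Krt7, with log2 fold changes from 6.13 to 4.88. Stmn4, a stathmin of neurons, was at 0.306 and 0.130 CPM in ESC-WT and 13.2 and 13.6 CPM in NPC-WT, with a log2 fold change of 6.13 ± 0.38 (SE, adjusted p = 1.64e-06), and its ESC-WT values rest on a few counts. Slc5a5, the sodium iodide symporter, was at 3.52 and 3.07 CPM in ESC-WT and 111 and 147 CPM in NPC-WT, with a log2 fold change of 5.31 ± 0.29 (SE, adjusted p = 8.48e-07). Wnt4 was at 1.22 and 1.24 CPM in ESC-WT and 33.1 and 47.2 CPM in NPC-WT, and Col1a2 (type I collagen) at 2.14 and 0.587 CPM in ESC-WT and 26.2 and 43.6 CPM in NPC-WT. Rrad, a small GTPase of muscle, and Tnnt3, a troponin, went from 1.07 and 0.130 to 12.966 and 16.6 CPM and from 0.764 and 0.196 to 12.4 and 11.516 CPM. The X-linked gene 3830417A13Rik went from 3.97 and 1.96 to 113 and 82.3 CPM. For each of these 7 genes both NPC-WT libraries were above both ESC-WT libraries, which the rule for naming them required.

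The 15 largest falls by the same rule were those of Tdgf1-ps1, Slc15a1, Prdm14, Gm46332, Tdgf1, Khdc3, Accsl, Inhbb, Phf11d, Tcl1, Jam2, Crxos, Myo1f, A2m and Tdh, with log2 fold changes from -6.21 to -4.85. Slc15a1, a peptide transporter, was at 29.0 and 30.9 CPM in ESC-WT and 0.466 and 0.688 CPM in NPC-WT, with a log2 fold change of -5.77 ± 0.25 (SE, adjusted p = 4.28e-07). Jam2, a junctional adhesion molecule, was at 166 and 169 CPM in ESC-WT and 2.92 and 8.59 CPM in NPC-WT, with a log2 fold change of -4.99 ± 0.35 (SE, adjusted p = 3.27e-06). Tdh, the threonine dehydrogenase on which mouse ESCs depend, was at 495 and 489 CPM in ESC-WT and 10.3 and 25.1 CPM in NPC-WT, with a log2 fold change of -4.85 ± 0.33 (SE, adjusted p = 2.4e-06). Inhbb, which encodes a subunit of activin, went from 56.7 and 64.6 to 0.932 and 3.09 CPM and Tcl1, a coactivator of Akt, from 47.7 and 45.7 to 0.508 and 2.84 CPM. In all 15 genes NPC-WT replicate 2 was above replicate 1.

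Parental E14 cells showed how far the changes were shared. There 13268 genes were tested, of which 2186 (16.5%) rose and 2165 (16.3%) fell. Of 3065 genes that rose in the WT rescue and were tested in E14, 1281 (41.8%) rose there too, 185 fell and 1599 were not called. Of 2870 that fell in the rescue, 1046 (36.4%) fell, 145 rose and 1679 were not called. Read from the other side, 59.0% of the 2172 genes that rose in E14 and were tested in the rescue rose there, and 48.5% of 2158 fell. Across the 13226 genes tested in both the changes had r = 0.59, with an SD of 1.15 in the rescue and 1.12 in E14. Genes are not independent replicates. The line, the treatment, the table and the depth differ together between the rescue and E14, and their parts cannot be told apart.

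The change itself differed between the lines for 4449 of 14219 genes tested, 2383 (16.8%) with a higher and 2066 (14.5%) with a lower change in the rescue, by a test of the contrast over 10 libraries. Without ESC-WT replicate 2 the first count was 1509. Surface ectoderm genes stood on the higher side, with 12 of 19 tested higher and 2 lower in the rescue. In E14 itself 8 of 18 members rose, Krt18, Grhl2 and Epcam among them, and 3 fell, and the summed level of the list went from 248 to 293 CPM in ESCs to 468 to 524 CPM in NPCs. Of 10 trophoblast genes 8 rose in E14, and for 3 of 11 the change was higher and for 1 lower in the rescue. The ΔZF1 rescue line, whose CTCF has a deletion in zinc finger 1, received the same treatment. There the median log2 fold change was 2.76 for surface ectoderm genes and 3.24 for trophoblast genes. Those medians were 3.10 and 4.12 in the WT rescue and 0.50 and 2.54 in E14. In the ΔZF1 line the median was 2.15 for formative genes, 4.20 for endoderm genes and -0.15 for core pluripotency factors. The WT rescue had 1.08, 1.90 and -1.27 for these lists, and E14 2.80, 3.44 and 0.52. The reason for these differences was not tested. Krt8 was at 26.3 ± 1.27 CPM (SD, n = 3) in E14 ESCs and 31.2 ± 6.67 CPM (SD, n = 3) in E14 NPCs, and its change was higher in the rescue by 4.67 ± 0.32 (SE, adjusted p = 3.18e-08). Krt19 was at 11.2 ± 0.980 CPM (SD, n = 3) in E14 ESCs and 9.76 ± 1.08 CPM (SD, n = 3) in E14 NPCs, a difference of 5.24 ± 0.36 (SE, adjusted p = 3.18e-08). Gata2 was at 5.87 ± 2.01 CPM (SD, n = 3) in E14 ESCs and 6.45 ± 2.33 CPM (SD, n = 3) in E14 NPCs, a difference of 4.05 ± 0.37 (SE, adjusted p = 6.42e-07). In E14 neither Krt19 nor Gata2 was called. Msx2 fell in E14, from 8.10 ± 2.47 to 2.79 ± 1.30 CPM (SD, n = 3), a difference of 4.47 ± 0.38 (SE, adjusted p = 3.51e-07). Gata3 and Hand1 rose in both lines, with log2 fold changes of 4.31 and 5.04 in E14 against 4.40 and 5.14 in the rescue.

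Sox1 and the formative genes stood on the lower side. Sox1 was at 4.72 ± 0.801 CPM (SD, n = 3) in E14 ESCs and 79.3 ± 4.87 CPM (SD, n = 3) in E14 NPCs, a log2 fold change of 4.01 against 1.68 in the rescue, with a difference of -2.31 ± 0.29 (SE, adjusted p = 1.55e-05). Pax6 rose in E14 from 2.58 ± 1.67 to 7.90 ± 1.16 CPM (SD, n = 3), a difference of -1.99 ± 0.65 (SE, adjusted p = 0.0261). Nes was at 23.9 ± 2.61 CPM (SD, n = 3) in E14 ESCs and 22.0 ± 3.11 CPM (SD, n = 3) in E14 NPCs, and its change was higher in the rescue by 1.71 ± 0.26 (SE, adjusted p = 0.000132). Of 18 formative genes 16 rose in E14, and 14 had a lower change in the rescue. Fgf5 was at 0 ± 0 CPM (SD, n = 3) in E14 ESCs and 10.6 ± 1.08 CPM (SD, n = 3) in E14 NPCs and Otx2 at 1.18 ± 0.448 CPM (SD, n = 3) in E14 ESCs and 29.4 ± 2.92 CPM (SD, n = 3) in E14 NPCs, with differences of -5.48 ± 1.94 (SE, adjusted p = 0.0419) and -3.23 ± 0.43 (SE, adjusted p = 3.11e-05). Fgf5 had no count in E14 ESCs, so that the size of its fitted difference depends on the prior count. Lef1, a mediator of Wnt signalling, rose from 1.48 ± 0.625 to 55.9 ± 4.10 CPM (SD, n = 3) in E14 and from 2.90 and 3.07 to 6.99 and 6.79 CPM in the rescue.

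Several pluripotency genes and ERK targets had a lower change in the rescue than in E14. Pou5f1 was at 545 ± 36.8 CPM (SD, n = 3) in E14 ESCs and 313 ± 24.2 CPM (SD, n = 3) in E14 NPCs, with a difference of -2.14 ± 0.26 (SE, adjusted p = 1.54e-05), and Nanog at 858 ± 20.006 CPM (SD, n = 3) in E14 ESCs and 114 ± 9.50 CPM (SD, n = 3) in E14 NPCs, with a difference of -1.75 ± 0.28 (SE, adjusted p = 0.00017). L1td1, an RNA-binding protein of pluripotent cells, rose in E14 from 261 ± 14.9 to 433 ± 38.2 CPM (SD, n = 3) and fell in the rescue from 442 and 484 to 66.4 and 84.4 CPM. Utf1 moved likewise, from 83.3 ± 14.9 to 259 ± 17.1 CPM (SD, n = 3) in E14 and from 139 and 141 to 55.9 and 74.4 CPM in the rescue. Klf4 and Tbx3 went the other way, with a smaller fall in the rescue by 1.24 ± 0.25 (SE, adjusted p = 0.00114) and 2.26 ± 0.21 (SE, adjusted p = 8.11e-07), and the difference for Esrrb, 0.16 ± 0.24 (SE, adjusted p = 0.642), was not called. Spry4 rose in E14 from 48.9 ± 6.49 to 99.7 ± 9.05 CPM (SD, n = 3), a difference of -3.77 ± 0.24 (SE, adjusted p = 1.94e-08). Among endoderm genes 20 of 23 rose in E14, and Dab2 went from 2.54 ± 1.61 to 162 ± 10.5 CPM (SD, n = 3) and Gata6 from 1.56 ± 0.187 to 49.7 ± 6.08 CPM (SD, n = 3), with differences of -3.78 ± 0.48 (SE, adjusted p = 2.05e-05) and -2.92 ± 0.41 (SE, adjusted p = 5.39e-05).

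Of genes with at least 100 normalized counts on average over the 10 libraries, the 5 largest called differences each way were as follows. The change was higher in the rescue for Krt19, Zfp36l3, Cdx1, Tinagl1 and Krt8, and lower for Cubn, Car4, Tdgf1-ps1, Etv1 and H19. Cdx1, a caudal homeobox gene and Wnt target, fell in both lines, being at 49.4 and 52.6 CPM in ESC-WT and 7.33 and 13.1 CPM in NPC-WT in the rescue and going from 264 ± 29.5 to 1.90 ± 1.37 CPM (SD, n = 3) in E14, a difference of 4.82 ± 0.39 (SE, adjusted p = 2.52e-07). Cubn rose from 0.374 ± 0.347 to 278 ± 68.2 CPM (SD, n = 3) in E14, a difference of -7.03 ± 0.75 (SE, adjusted p = 3.07e-06), and H19 from 0.129 ± 0.224 to 83.2 ± 19.4 CPM (SD, n = 3), a difference of -4.61 ± 1.08 (SE, adjusted p = 0.00377). Before differentiation, H19 and Cubn were at 92.3 and 45.1 CPM and 31.5 and 9.46 CPM in ESC-WT of the rescue, above their levels in E14 ESCs. Their levels in E14 ESCs rest on few counts, so the size of both differences is uncertain. In NPCs the level of H19 was higher in the rescue than in E14, and that of Cubn lower. Etv1, an ETS factor, rose from 6.05 ± 1.48 to 31.4 ± 4.19 CPM (SD, n = 3) in E14 and fell from 10.5 and 10.3 to 1.48 and 2.32 CPM in the rescue, a difference of -4.90 ± 0.36 (SE, adjusted p = 6.33e-08).

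**Figure D5:**
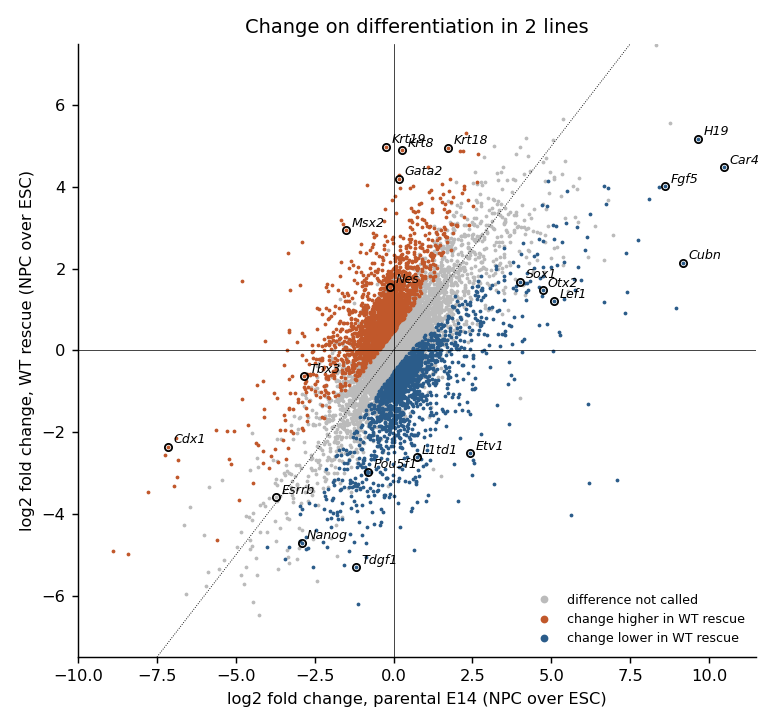
Log2 fold change of NPC over ESC in parental E14 (horizontal axis) against that in the WT rescue line (vertical axis) for the 13226 genes tested in both, coloured by whether the change was called higher or lower in the rescue, with the dotted line at equal changes. Krt8, Krt19 and Gata2 lie high and near 0 on the E14 axis, Fgf5, Sox1 and Lef1 lie to the right and below the line, and Nanog lies below it at the lower left.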

How the data were processed

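RNA-seq counts of the CTCF WT rescue line, as ESCs and as NPCs, were analysed, with parental E14 as a second line. The authors depleted rRNA, primed cDNA with random hexamers, aligned reads to mm10 with STAR and counted them per gene with featureCounts, without strand. Reads of overlapping antisense genes were therefore not told apart. As deposited, the tables hold raw counts. The table of parental cells held 3 columns that match no sample and were not used.

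The fit used edgeR 4.0.16 (R 4.3.3) after TMM scaling and its filter on low counts, with a mean for each group. The rescue fit held the 8 libraries of its table, the E14 fit 18, and the difference was tested over 10. Tests were quasi-likelihood F tests with Benjamini-Hochberg adjustment. Calls needed an adjusted p up to 0.05 with 0.5 or more in log2 fold change, as in the study. The standard error (SE) is the log2 fold change divided by the square root of F. TPM used the union of exons, and promoters and positions are on GRCm38.p6. A count of 0 was taken to allow 3 counts, for counting error only. Genes named are the 15 largest rises and falls with at least 100 normalized counts on average and no overlap, the 5 largest differences from E14 each way, the leading and defining members of 45 lists, and the most abundant genes, while further list members were chosen with their values seen. The lists were chosen with earlier results of these data known. Results for a few list members are not reported here. Scripts were tested on simulated data. Alternatives were DESeq2 1.42.0 with and without ashr 2.2.63, RLE normalization, other filters and cutoffs, fewer or more libraries, a replicate block, each library left out, and, added after seeing the data, an offset for GC content.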

Additional observations from a re-analysis of the deposited data

Results flagged for a closer look

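The results here had a change on differentiation that differed between the WT rescue line and parental E14 by the test of the contrast, and line, treatment, table and depth cannot be told apart. The change was higher in the rescue for 2383 genes and lower for 2066. Values are the log2 fold change in the rescue minus that in E14.

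Among surface ectoderm genes the difference was 4.67 for Krt8, 3.26 for Krt18, 5.24 for Krt19, 2.67 for Krt7, 3.96 for Wnt6, 4.05 for Gata2, 4.47 for Msx2, 3.30 for Dlx3, 3.19 for Tfap2a, 1.26 for Tfap2c and -0.567 for Epcam. Among the genes of largest difference it was 4.89 for Zfp36l3, 4.82 for Cdx1, 4.73 for Tinagl1, -7.03 for Cubn, -6.13 for Car4, -5.01 for Tdgf1-ps1, -4.07 for Tdgf1, -4.90 for Etv1 and -4.61 for H19. Among pluripotency genes it was -2.14 for Pou5f1, -1.52 for Sox2, -1.75 for Nanog, -1.34 for Zfp42, 1.24 for Klf4, 2.26 for Tbx3, -3.39 for Fgf4, -3.31 for L1td1 and -2.70 for Utf1.

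Among neural and formative genes the difference was -2.31 for Sox1, -1.99 for Pax6, 1.71 for Nes, 2.62 for Zfp521, -5.48 for Fgf5, -3.23 for Otx2, -2.35 for Pou3f1 and -3.88 for Lef1. Among signalling, methylation and other genes it was -2.27 for Dusp6, -2.61 for Etv5, -3.77 for Spry4, -0.917 for Myc, -2.75 for Lefty2, -1.66 for Tet1, -2.22 for Dnmt3a, -2.92 for Gata6, -3.78 for Dab2, 1.69 for Slc2a1, -2.26 for Pdk1, 2.13 for Peg3 and -0.713 for Peg10.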

How the results depend on the processing

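In the rescue, the counts of rising and falling genes stayed within 1.5 times of 3661 and 3319 under the alternatives tried, except at a log2 fold change of at least 1, with 2358 and 1815. They were 3364 and 2997 with DESeq2, and 3043 and 2631 by edgeR with only the 4 libraries compared. Leaving out each library in turn gave 2631 to 4182 rising and 2407 to 3927 falling genes, 2096 to 2272 and 1907 to 2172 in E14, and 1509 to 3109 and 1577 to 2824 for the difference, whose counts were 1515 and 1265 at an adjusted p of at most 0.01. Where 1 library was left in a group, its spread was taken to be that of the other groups. No gene called in the rescue changed sign under the alternatives, except 7 of 6977 without ESC-WT replicate 2. Of 3069 values of 222 named genes under the alternatives, 3016 kept direction and side of the cutoffs, 47 lost the call and 5 gained it. Uncalled values that changed sign were those of Pax6 (-0.96 to 0.45 with each library left out), of Gata2 in E14 (-0.10 to 0.53), of Dlx3 in E14 (-0.13 to 0.58) and of the difference for Esrrb (-0.25 to 0.47, and -0.17 with the offset for GC content), and the cause was not tested. The replicate numbers were not used to pair the samples, and the labels do not state a pairing. Deviations of same-numbered libraries correlated at 0.04 in the rescue and at -0.07, -0.02 and -0.06 in E14. With so few libraries these values cannot exclude a pairing. With a replicate block 3610 genes rose and 3269 fell in the rescue, and for the difference 2344 and 2079. The shallowest library, ESC-WT replicate 1, limits genes under about 0.459 CPM.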

Other observations

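Metabolic and stress genes moved in both directions within their lists, and over all genes tested 22.0% rose and 19.9% fell. Of 22 glycolysis genes 5 rose and 7 fell, and 3 rose without NPC-WT replicate 2 or with the offset for GC content and 2 without ESC-WT replicate 2, with the glucose transporters Slc2a1 at 382 and 340 CPM in ESC-WT and 1411 and 1616 CPM in NPC-WT and Slc2a3 at 1886 and 1678 CPM in ESC-WT and 5380 and 5054 CPM in NPC-WT, and the enzymes Pfkp at 223 and 242 CPM in ESC-WT and 35.0 and 54.3 CPM in NPC-WT and Ldha at 563 and 558 CPM in ESC-WT and 178 and 234 CPM in NPC-WT. Pdk1, which restrains pyruvate entry into mitochondria, fell from 125 and 112 to 28.2 and 26.039 CPM. Of 24 cholesterol synthesis genes 2 rose and 5 fell. The falls numbered 2 without ESC-WT replicate 2 or NPC-WT replicate 2, and 3 without ESC-WT replicate 1 or with the offset for GC content, and the rises 1 without ESC-WT replicate 2 and 5 without NPC-WT replicate 1. Among 20 p53 targets 10 rose and 1 fell (2 without NPC-WT replicate 1), with Mdm2 at 119 and 120 CPM in ESC-WT and 261 and 225 CPM in NPC-WT, Plk2 at 26.3 and 20.6 CPM in ESC-WT and 78.3 and 68.9 CPM in NPC-WT and Gdf15, the one that fell, at 5.04 and 6.39 CPM in ESC-WT and 0.678 and 1.03 CPM in NPC-WT. Cdkn1a (p21) was at 92.3 and 86.9 CPM in ESC-WT and 67.8 and 80.4 CPM in NPC-WT and was not called. Of 16 stress genes 6 rose and 5 fell, with Hmox1 at 144 and 140 CPM in ESC-WT and 354 and 343 CPM in NPC-WT, Asns at 1222 and 1188 CPM in ESC-WT and 402 and 380 CPM in NPC-WT and Chac1 at 14.978 and 19.111 CPM in ESC-WT and 2.08 and 1.98 CPM in NPC-WT. Hypoxia targets had 5 of 15 higher and 4 lower (2 lower without ESC-WT replicate 1), with Ndrg1 at 7.64 and 5.87 CPM in ESC-WT and 37.2 and 35.2 CPM in NPC-WT. G1 cyclins and inhibitors had 4 of 20 higher and 4 lower, near the shares over all genes, and of 7 clustered protocadherins tested 2 fell. Of 14 neuroepithelial transporter and lipid genes 8 rose and 2 fell (1 fell without ESC-WT replicate 1, ESC-WT replicate 2 or NPC-WT replicate 1, or with the offset for GC content), with the retinoic acid binding protein Crabp1, one that fell, at 31.2 and 30.5 CPM in ESC-WT and 12.8 and 16.2 CPM in NPC-WT.

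Cytosolic ribosomal protein genes and mitochondrially encoded genes gave counts that depended on which NPC-WT library was used. Of 57 ribosomal protein genes 21 fell and 0 rose by edgeR, 18 fell and 0 rose by DESeq2, and 36 fell and 0 rose at an unadjusted p under 0.05, and the median of their log2 changes was -0.42. By edgeR, 15 fell without NPC-WT replicate 1, 33 without replicate 2 and 28 with the offset for GC content. Rpl37 was at 201 and 234 CPM in ESC-WT and 119 and 122 CPM in NPC-WT. Of 7 mitochondrially encoded genes tested 0 were called by edgeR or DESeq2 and 0 had an unadjusted p under 0.05, with log2 fold changes from -0.90 to -0.17. Without NPC-WT replicate 1 all 7 fell, with the offset for GC content 1 and with no filter on low counts 3. All 37 mitochondrial genes together, rRNA and tRNA genes included, held 1.52% and 2.03% of all counts in ESC-WT, and 2.01% and 0.580% in NPC-WT. The listed protein-coding ones held 0.689% and 0.816% in ESC-WT, and 0.830% and 0.254% in NPC-WT. Their part in the NPC-WT spread was not tested.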
